A study of Homo sapiens with 54 samples.

Results

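Nifedipine and tolbutamide were compared directly in HepG2, a human hepatocellular carcinoma cell line used as a liver cell model. The comparison took the 3 arrays of cultures exposed for 24 h to nifedipine at 420 µM and the 3 arrays of cultures exposed for 24 h to tolbutamide at 2.1 mM, chosen by their labels, which is 6 of the 54 arrays of the study. The arrays were paired by their biological replicate number, 1 to 3, and all 20056 Ensembl gene IDs were tested. All cultures, including the controls, carried the solvent dimethyl sulfoxide (DMSO), which is given as 0.5 percent for the solvent cultures. The controls at 24 h were 6 DMSO arrays from 2 solvent exposures of 3 replicates each. The same groups at 48 h (nifedipine, n = 3, tolbutamide, n = 3, and DMSO, n = 6, at the same doses) served as a comparison. The remaining arrays held 5 other compounds, with n = 3 at each time, namely piperonyl butoxide (45 µM), methapyrilene hydrochloride (114 µM), 2-nitrofluorene (35 µM), clonidine (95 µM) and NNK, a tobacco-specific nitrosamine ketone (10 mM). The doses of nifedipine and tolbutamide differed, so compound and dose cannot be told apart in any difference below. HepG2 is 1 tumour cell line, and cultures rather than donors were replicated.

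Nifedipine is a dihydropyridine that blocks L-type voltage-gated calcium channels and is used against high blood pressure and angina. Tolbutamide is a sulfonylurea that closes ATP-sensitive potassium channels of pancreatic beta cells and so raises insulin release. Both drugs are cleared mainly by metabolism in the liver. From general knowledge they belong to the non-carcinogens of the study. The labels do not state this.

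Each array gave a log2 expression value per ID, so a difference of 1 is a doubling or halving of the measured level. The files and reference tables used here pair 0 of the 20056 IDs with a gene symbol. Genes are therefore given by ID without a name or function. For the same reason the markers of liver cells could not be checked, and gene lists and promoter sequences could not be matched to the rows. At most 2 IDs that were higher and 2 that were lower are named for each comparison. The values had been normalized between arrays, so differences in total RNA per cell are not visible. The 6 arrays were alike in their overall distribution, with medians between 5.71 and 5.80 and slopes on the mean of all arrays between 1.01 and 1.03. Of the other arrays, 4 had slopes under 0.95, namely piperonyl butoxide 48 h replicate 1, piperonyl butoxide 24 h replicate 2, NNK 24 h replicate 2 and DMSO 24 h exposure 2 replicate 2. No nifedipine or tolbutamide array was among them, but they entered the shared estimate of the spread, so counts are also given without these 4. The small number of arrays per group limits the precision of every value.

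After 24 h, a small part of the IDs was called different between nifedipine and tolbutamide cultures, and most of these were lower in nifedipine. An ID that was not called is not thereby shown to be equal in both, and the count depended on the setting. With limma, 440 IDs (2.19 percent of all) passed an adjusted p of 0.05. Of these, 129 (0.643 percent) were higher in nifedipine than in tolbutamide and 311 (1.55 percent) were lower, so 70.7 percent of the calls were lower in nifedipine. The median absolute difference of the called IDs was 0.71 on the log2 scale, and 24 IDs were higher and 49 lower by more than 1. The median difference over all 20056 IDs was -0.03. An unadjusted p under 0.05 was reached by 2166 IDs. For this and later unadjusted counts, chance alone would bring a share of about 0.05 of all IDs under the limit. Without the replicate block 167 IDs passed the adjusted p (48 higher and 119 lower). With each array centred on its median 282 passed it (86 higher and 196 lower).

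Without the 4 low-slope arrays the differences were identical, and the smaller estimate of the spread gave 1451 calls (7.23 percent), of which 635 were higher and 816 lower, and all 440 IDs were among them. The share of calls that were lower in nifedipine was then 56.2 percent. It was 54.1 percent in a fit of the 6 arrays alone and 60.5 percent after cyclic loess scaling, so the excess of lower calls was kept in each of these settings and its size was not. Leaving out 1 array of either group lowered the count by more than 1.5 times in 5 of 6 cases, to 135 without nifedipine replicate 1, 192 without nifedipine replicate 2, 244 without tolbutamide replicate 1, 187 without tolbutamide replicate 2 and 244 without tolbutamide replicate 3. Leaving out piperonyl butoxide 48 h replicate 1 raised it to 703.

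The calls were not spread evenly over expression levels. The IDs were split by their mean over all arrays into 4 groups of 5014. In the group with the lowest means, 10 IDs were called higher and 4 lower (0.279 percent). The next group held 37 higher and 26 lower calls (1.26 percent), and the one above it 48 and 107 (3.09 percent). In the group with the highest means, 34 were higher and 174 lower (4.15 percent). The calls higher in nifedipine were thus most frequent in the middle of the range, while the number of calls lower in nifedipine increased with the level. The median difference of all IDs was between -0.05 and -0.02 in each of the 4 level groups. At the threshold itself, the last ID inside had a difference of 0.77 (adjusted p = 0.04989) and the first outside one of -0.80 (adjusted p = 0.0502).

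**Figure D1:**
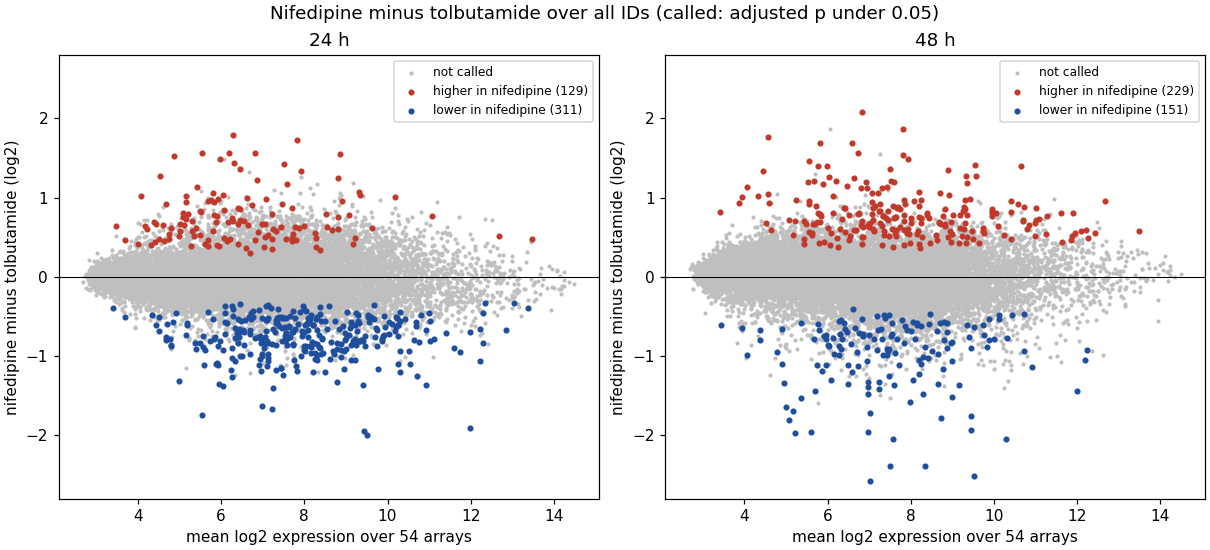
Log2 difference of nifedipine minus tolbutamide (vertical axis) against the mean log2 expression over 54 arrays (horizontal axis) for all 20056 IDs at 24 h and 48 h, with called IDs coloured by direction. At 24 h, 311 of the 440 called IDs lie below the zero line, and at 48 h, 151 of 380.

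The ID with the largest difference in either direction was ENSG00000164406, which was lower in nifedipine. Its log2 level was 7.77, 7.98 and 8.83 in nifedipine replicates 1, 2 and 3, and 9.43, 10.0 and 11.1 in tolbutamide replicates 1, 2 and 3. The highest nifedipine array lay below the lowest tolbutamide array, and replicate 3 was the highest array in both groups. The difference was -1.99 (SE 0.21, adjusted p = 1.17e-07 in limma), a 3.98-fold lower level. The 6 DMSO arrays at 24 h lay between 9.39 and 10.8 with a median of 10.1. Tolbutamide minus DMSO was 0.07 (adjusted p = 1) and nifedipine minus DMSO -1.92 (adjusted p = 1.03e-09). Without the replicate number as a block the call was lost (adjusted p = 0.0916, the highest of 61 alternatives, with a lowest of 2.17e-09), with the levels of both compounds spread over more than 1 log2 unit between replicates.

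ENSG00000256235 had nearly the same size of difference. It measured 7.60, 7.91 and 9.38 in nifedipine and 9.74, 10.1 and 10.9 in tolbutamide, in replicate order. The groups did not overlap, and again replicate 3 was the highest in both. The difference was -1.95 (SE 0.18, adjusted p = 1.04e-08), and the DMSO arrays lay between 9.04 and 10.9. Nifedipine was below DMSO by -1.67 (adjusted p = 1.03e-09) and tolbutamide above it by 0.28 (adjusted p = 0.748).

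Among the IDs higher in nifedipine, ENSG00000148677 had the largest difference, with uneven replicates. It measured 8.13, 8.21 and 5.95 in nifedipine and 6.32, 5.16 and 5.44 in tolbutamide. Replicate 3 of nifedipine lay below replicate 1 of tolbutamide, so the groups overlapped, and the 3 pair differences were 1.81, 3.05 and 0.51. The difference was 1.79 (SE 0.44, adjusted p = 0.0195). The call was lost without nifedipine replicate 1 (adjusted p = 0.169), without nifedipine replicate 2 (adjusted p = 0.243), without tolbutamide replicate 2 (adjusted p = 0.193), without the block (adjusted p = 0.12) and with arrays centred on the median (adjusted p = 0.0518). Over all alternatives its adjusted p lay between 0.000382 and 0.243. The DMSO arrays, between 5.86 and 6.99, lay between the means of the compounds. Neither nifedipine (1.05, adjusted p = 0.0911) nor tolbutamide (-0.74, adjusted p = 0.629) passed the test against DMSO for this ID with all arrays in the fit. Without the 4 low-slope arrays nifedipine passed it (0.94, adjusted p = 0.0233).

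ENSG00000138166 was more even. It measured 8.53, 8.58 and 8.16 in nifedipine and 6.87, 6.78 and 6.44 in tolbutamide. Every nifedipine array was more than 1 log2 unit above every tolbutamide array. The difference was 1.73 (SE 0.26, adjusted p = 8.94e-05), a 3.31-fold higher level. The DMSO arrays lay between 6.83 and 7.66. Nifedipine was above DMSO by 1.31 (adjusted p = 0.000102), and tolbutamide differed from it by -0.41 (adjusted p = 0.727).

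**Figure D2:**
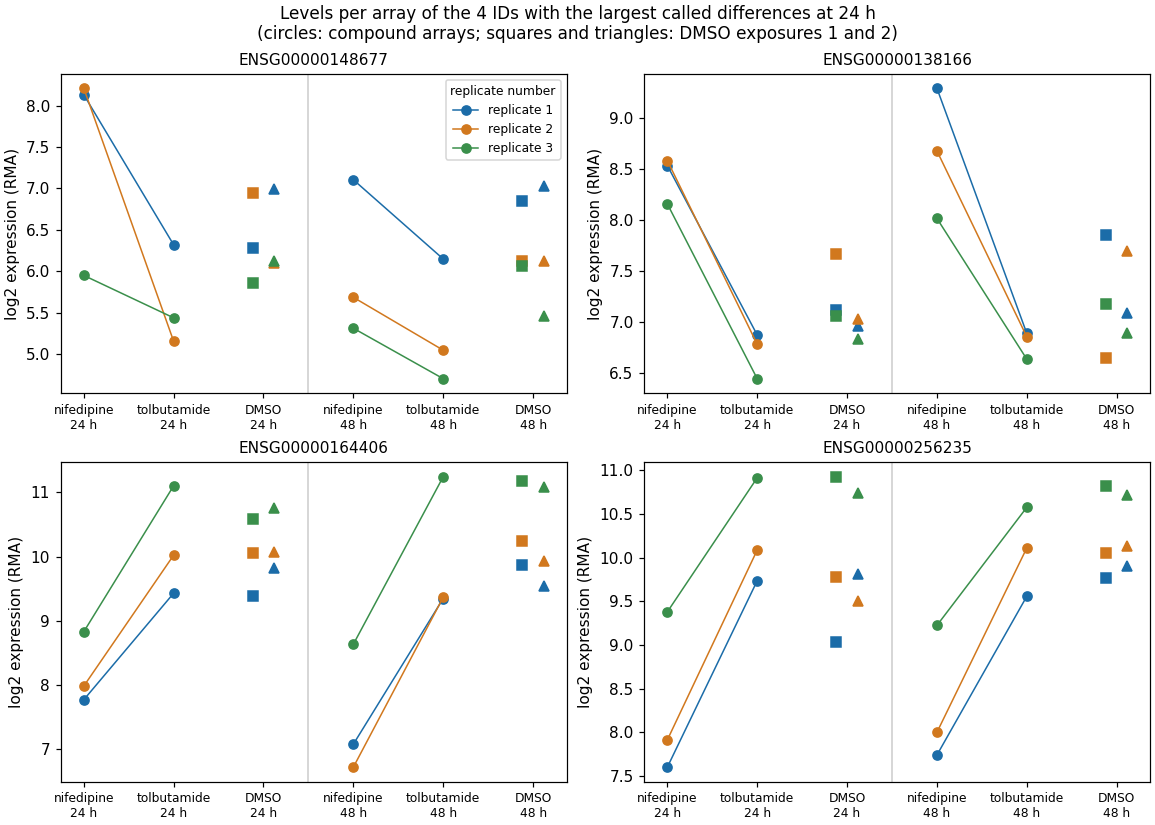
Log2 expression of the 4 named IDs in each nifedipine, tolbutamide and DMSO array at 24 h and 48 h, with lines joining nifedipine and tolbutamide arrays of equal replicate number and colours marking the number. For ENSG00000164406, ENSG00000256235 and ENSG00000138166 the 3 arrays of nifedipine and of tolbutamide do not overlap at either time, and for ENSG00000148677 they overlap at both.

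Across the pairs the called IDs moved alike in most cases. All 3 pairs had the direction of the call in 128 of the 129 higher IDs and in 310 of the 311 lower ones. The median difference of the higher IDs was 0.78 in pair 1, 0.74 in pair 2 and 0.51 in pair 3, and that of the lower IDs was -0.77, -0.81 and -0.59. Pair 3 thus had the smallest median in both directions. The medians over all IDs were -0.07, -0.06 and 0.01. As these pairs are the ones on which the calls were made, their agreement describes the calls and adds no support to them. The 2 groups did not overlap in 116 of the 129 higher IDs (89.9 percent) and in 266 of the 311 lower IDs (85.5 percent). Over all IDs the groups did not overlap in 22.5 percent, with nifedipine higher in 8.99 percent and lower in 13.5 percent.

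The size of a pair's difference was set beside that of 2 DMSO arrays of the same number, exposure 1 minus exposure 2. The SD over all IDs around the pair's median was 0.35, 0.36 and 0.28 for nifedipine minus tolbutamide in pairs 1, 2 and 3. It was 0.36, 0.66 and 0.23 for the DMSO exposures, where number 2 includes the low-slope DMSO array. Over all IDs, nifedipine and tolbutamide cultures of a pair thus differed about as widely as solvent cultures did in pair 1, less widely in pair 2 and more widely in pair 3. The number of IDs more than 1 from the pair's median was 270 between the compounds and 297 between the solvent exposures in pair 1. It was 339 and 2433 in pair 2, and 135 and 24 in pair 3.

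**Figure D3:**
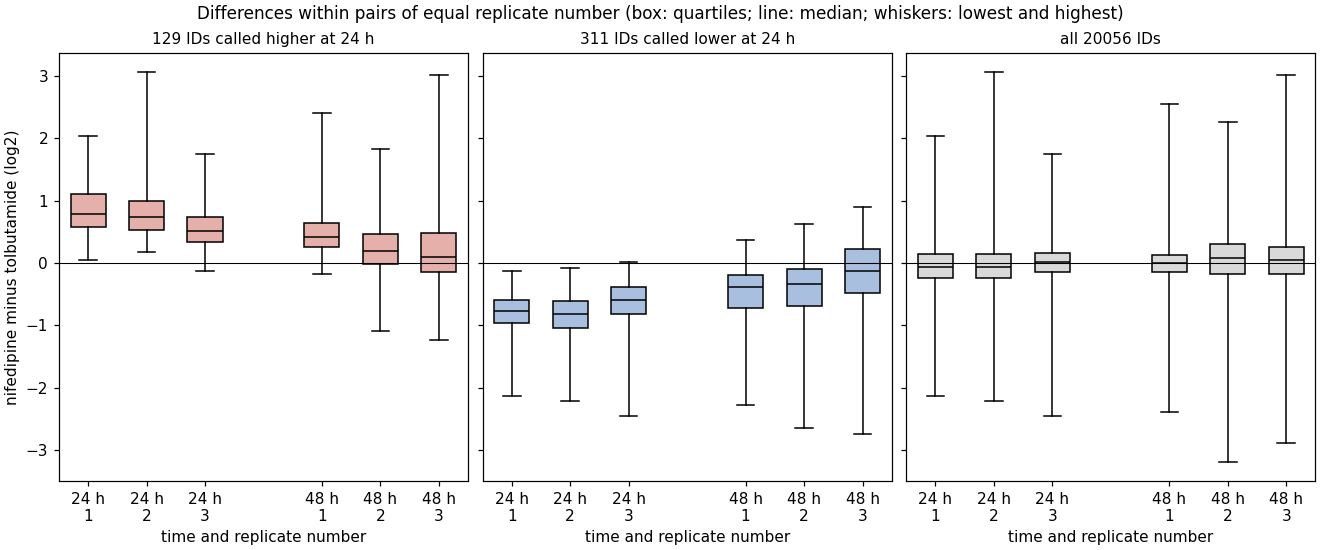
Box plots of the log2 difference of nifedipine minus tolbutamide within each pair of equal replicate number at 24 h and 48 h, for the 129 IDs called higher, the 311 called lower and all 20056 IDs (box, quartiles; line, median; whiskers, lowest and highest). The medians of the called IDs lie closer to 0 in each 48 h pair than in any 24 h pair, and those of all IDs stay within 0.1 of 0.

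The DMSO arrays show on which side the compounds parted. Of the 129 IDs higher in nifedipine than in tolbutamide, 100 were also called higher in nifedipine than in DMSO and 0 lower, with a median change of 0.57. In tolbutamide 5 were called higher than DMSO, 5 lower and 119 were not called, with a median of -0.05. Of the 311 lower IDs, 215 were called lower in nifedipine than in DMSO and 0 higher (median -0.55), while in tolbutamide 26 were called higher, 4 lower and 281 were not called (median 0.13). Most IDs that part the compounds at 24 h were thus called against DMSO in nifedipine and not in tolbutamide. Over all IDs limma called 1641 in nifedipine minus DMSO (8.18 percent, with 708 or 3.53 percent higher and 933 or 4.65 percent lower) and 405 in tolbutamide minus DMSO (2.02 percent, with 172 or 0.858 percent higher and 233 or 1.16 percent lower). The medians over all IDs were -0.06 and -0.01. The 2 comparisons share the DMSO arrays, and each shares its compound arrays with the comparison that chose the IDs, so these counts describe the chosen IDs and give no independent support. An ID not called in tolbutamide is not thereby shown to be at the level of DMSO.

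Without the 4 low-slope arrays most called IDs again had their call against DMSO in nifedipine. Of the 635 IDs then called higher, 449 (70.7 percent) were called higher in nifedipine than in DMSO and 1 lower. In tolbutamide 23 of them (3.62 percent) were called higher and 50 (7.87 percent) lower. Of the 816 called lower, 545 (66.8 percent) were called lower in nifedipine and 1 higher. In tolbutamide 31 of them (3.8 percent) were called lower and 100 (12.3 percent) higher. Over all IDs this setting called 2894 in nifedipine minus DMSO (6.4 percent higher and 8.03 percent lower). It called 1068 in tolbutamide minus DMSO (2.2 percent higher and 3.12 percent lower). With all other arrays in the fit, nifedipine minus DMSO fell to 744 calls without nifedipine replicate 1 and 805 without nifedipine replicate 2. Tolbutamide minus DMSO had 202, 198 and 204 calls without tolbutamide replicate 1, 2 or 3, and 611 without piperonyl butoxide 48 h replicate 1.

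The 48 h cultures gave the same contrast on arrays that had no part in choosing the IDs, except through the shared estimate of the spread. At 48 h limma called 380 IDs (1.89 percent), 229 higher in nifedipine (1.14 percent) and 151 lower (0.753 percent). Of the 129 IDs higher at 24 h, 31 were called higher at 48 h and 0 lower, which is 24.0 percent of the 24 h list and 13.5 percent of the 48 h list. Of the 311 lower IDs, 70 were called lower at 48 h and 1 higher, which is 22.5 percent of the 24 h list and 46.4 percent of the 48 h list. These shares lie above the 1.14 and 0.753 percent called over all IDs.

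The IDs called at 24 h had smaller differences at 48 h. This does not hold for the IDs called at each time. Their median absolute difference was 0.71 at 24 h and 0.78 at 48 h. By more than 1, 24 were higher and 49 lower at 24 h, and 43 higher and 53 lower at 48 h. The higher IDs had a median difference of 0.25 at 48 h, with 103 of 129 (79.8 percent) positive, where 59.6 percent of all IDs were positive and the median of all was 0.05. The lower IDs had a median of -0.28, with 253 of 311 (81.4 percent) negative, where 40.4 percent of all IDs were negative. A smaller median is partly set by the choice of IDs for their 24 h difference. By pair, the medians at 48 h were 0.41, 0.19 and 0.10 for the higher IDs and -0.39, -0.33 and -0.12 for the lower ones, so pair 1 kept the most and pair 3 the least. The 2 groups did not overlap at 48 h in the direction of the call in 49 of the higher IDs (38.0 percent) and 113 of the lower (36.3 percent). Of all IDs 19.9 percent did not overlap in either direction, with nifedipine higher in 12.2 percent and lower in 7.69 percent.

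The count at 48 h rose to 1518 without the 4 low-slope arrays, with 787 higher (3.92 percent of all IDs) and 731 lower (3.64 percent). Of the 635 IDs called higher at 24 h in that setting, 119 (18.7 percent) were called higher at 48 h and 3 lower. Of the 816 called lower at 24 h, 211 (25.9 percent) were called lower at 48 h and 4 higher. The count at 48 h was 152 without the replicate block. In a fit of the 6 arrays of 48 h alone it was 250, of which 86 were higher and 164 lower, and after cyclic loess it was 438, with 216 higher and 222 lower. The balance between the directions at 48 h thus turned with the arrays in the fit and with the scaling. It also turned without nifedipine 48 h replicate 3 (90 higher and 99 lower) and without tolbutamide 48 h replicate 3 (75 higher and 78 lower). Leaving out 1 array gave 189 without nifedipine 48 h replicate 2, 189 without nifedipine 48 h replicate 3, 217 without tolbutamide 48 h replicate 2, 153 without tolbutamide 48 h replicate 3 and 593 without piperonyl butoxide 48 h replicate 1.

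Among the named IDs, 3 of 4 were called at 48 h as well. ENSG00000164406 measured 7.07, 6.72 and 8.63 in nifedipine and 9.35, 9.37 and 11.2 in tolbutamide, a difference of -2.51 (SE 0.21, adjusted p = 3.09e-10). ENSG00000256235 measured 7.74, 8.0 and 9.22 against 9.56, 10.1 and 10.6, a difference of -1.76 (SE 0.18, adjusted p = 8.88e-08). ENSG00000138166 measured 9.29, 8.68 and 8.01 against 6.89, 6.85 and 6.63, a difference of 1.87 (SE 0.26, adjusted p = 2.63e-05). In each of these the groups did not overlap. ENSG00000148677 did not pass at 48 h, where it measured 7.11, 5.69 and 5.31 in nifedipine and 6.15, 5.05 and 4.71 in tolbutamide (difference 0.73, adjusted p = 0.617).

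The largest differences at 48 h brought 2 further IDs. ENSG00000121552 measured 8.99, 9.21 and 9.36 in nifedipine and 7.57, 7.40 and 6.35 in tolbutamide at 48 h, a difference of 2.08 (SE 0.36, adjusted p = 0.000478). At 24 h it measured 8.43, 8.35 and 8.16 against 6.39, 6.60 and 7.26, a difference of 1.56 (SE 0.36, adjusted p = 0.0123). At both times every nifedipine array was above every tolbutamide array. In contrast to the IDs above, it was called higher than DMSO at 24 h in both compounds, by 3.05 in nifedipine (adjusted p = 6.17e-09) and by 1.49 in tolbutamide (adjusted p = 0.00375), so the compounds differed in the size of a change of the same direction. Its 24 h call in the direct comparison was lost without the block (adjusted p = 0.091) and without nifedipine replicate 1 (0.126), nifedipine replicate 2 (0.129), tolbutamide replicate 1 (0.0804) or tolbutamide replicate 3 (0.0504). Over 61 alternatives its adjusted p at 24 h lay between 0.000183 and 0.129.

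ENSG00000121858 parted the compounds at 48 h from the side of tolbutamide. At 48 h it measured 6.35, 5.83 and 7.56 in nifedipine and 8.75, 8.80 and 9.92 in tolbutamide, a difference of -2.57 (SE 0.37, adjusted p = 2.77e-05). Tolbutamide was above DMSO by 1.91 at 48 h (adjusted p = 0.000139) and nifedipine differed from it by -0.67 (adjusted p = 0.306). At 24 h the arrays overlapped, with 6.58, 6.71 and 7.17 in nifedipine and 7.11, 6.59 and 8.37 in tolbutamide (difference -0.54, adjusted p = 0.754). The change between times was -2.04 (SE 0.52) and did not pass its own test (adjusted p = 0.148), though it did without the 4 low-slope arrays (adjusted p = 0.0283).

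A test of the difference between times called 4 IDs (0.0199 percent), in all of which nifedipine minus tolbutamide was higher at 48 h than at 24 h, and 1961 IDs had an unadjusted p under 0.05. Without the 4 low-slope arrays it called 474 (298 higher and 176 lower). In a fit of the nifedipine and tolbutamide arrays alone limma called 0, with 4005 at an unadjusted p under 0.05. The count was 1 without nifedipine 24 h replicate 1, 41 without nifedipine 24 h replicate 3, 2 without nifedipine 48 h replicate 3, 8 without tolbutamide 48 h replicate 1 and 2 without tolbutamide 48 h replicate 3. A smaller difference at 48 h was therefore not established for most IDs called at 24 h.

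Of the 4, ENSG00000183876 changed direction. At 24 h it measured 4.80, 4.82 and 4.90 in nifedipine and 5.50, 5.76 and 5.50 in tolbutamide, a difference of -0.75 (SE 0.14, adjusted p = 0.000889). At 48 h it measured 5.59, 5.75 and 5.81 in nifedipine and 5.35, 5.16 and 4.92 in tolbutamide, a difference of 0.57 (SE 0.14, adjusted p = 0.0149). The groups did not overlap at either time, and nifedipine was the lower compound at 24 h and the higher at 48 h. Against DMSO, nifedipine was lower at 24 h by -1.09 (adjusted p = 1.86e-08) and differed by -0.02 at 48 h (adjusted p = 0.975), while tolbutamide differed by -0.34 at 24 h (adjusted p = 0.165) and was lower by -0.59 at 48 h (adjusted p = 0.00161). The difference between times was 1.32 (SE 0.19, adjusted p = 8e-04), and it did not pass after cyclic loess (adjusted p = 0.122) or with the nifedipine and tolbutamide arrays alone (adjusted p = 0.134), with a lowest adjusted p of 0.000328 over 61 alternatives. The call at 48 h was lost in 7 of 61 alternatives, with an adjusted p between 0.0059 and 0.226.

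ENSG00000166173 parted the compounds at 48 h. At 24 h it measured 6.75, 6.99 and 6.82 in nifedipine and 7.25, 7.19 and 7.31 in tolbutamide, a difference of -0.40 that did not pass the test (adjusted p = 0.29). At 48 h it measured 7.56, 7.76 and 7.63 in nifedipine and 6.76, 7.07 and 6.37 in tolbutamide, a difference of 0.92 (SE 0.17, adjusted p = 0.00078). The difference between times was 1.32 (SE 0.23, adjusted p = 0.0102), and 6 of 61 alternatives lost this call (adjusted p between 0.00455 and 0.164). At 48 h nifedipine was above DMSO by 0.80 (adjusted p = 0.000191) and tolbutamide differed from it by -0.12 (adjusted p = 1).

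The other compounds of the study give the levels of the called IDs in cultures that had no part in choosing them, except through the shared estimate of the spread. At 24 h the 311 IDs lower in nifedipine had a median of -0.56 in piperonyl butoxide minus DMSO, with 254 (81.7 percent) negative, where the median of all IDs was 0.10 and 37.4 percent were negative. In the other 4 compounds the median of these IDs lay between -0.09 in methapyrilene and -0.02 in clonidine. The share negative was 71.7 percent in NNK (42 percent of all IDs) and 65.6 percent in methapyrilene (58.7 percent of all). It was 64.3 percent in 2-nitrofluorene (55 percent of all) and 54.7 percent in clonidine (59.2 percent of all). Without the 4 low-slope arrays, 1 of which is a piperonyl butoxide array at 24 h, the piperonyl butoxide median was -0.58. The expression level moved with this as well, since in the group of 5014 IDs with the highest means all IDs had a median of -0.19 in piperonyl butoxide and the 174 lower IDs of that group one of -0.64. In the next group down the medians were 0.05 for all IDs and -0.52 for the 107 lower IDs. Below that they were 0.20 and -0.41 (26 lower IDs), and in the lowest group 0.12 and -0.0002 (4 lower IDs). The part of the expression level in the result was not tested. The 129 IDs higher in nifedipine had a median of 0.21 in piperonyl butoxide, with 65.9 percent positive, beside 62.6 percent of all IDs. Their median was 0.17 in methapyrilene (76.7 percent positive, beside 41.3 percent of all IDs) and 0.10 in 2-nitrofluorene (74.4 beside 45 percent). It was 0.04 in clonidine (60.5 beside 40.8 percent) and -0.01 in NNK (45 beside 58 percent).

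**Figure D4:**
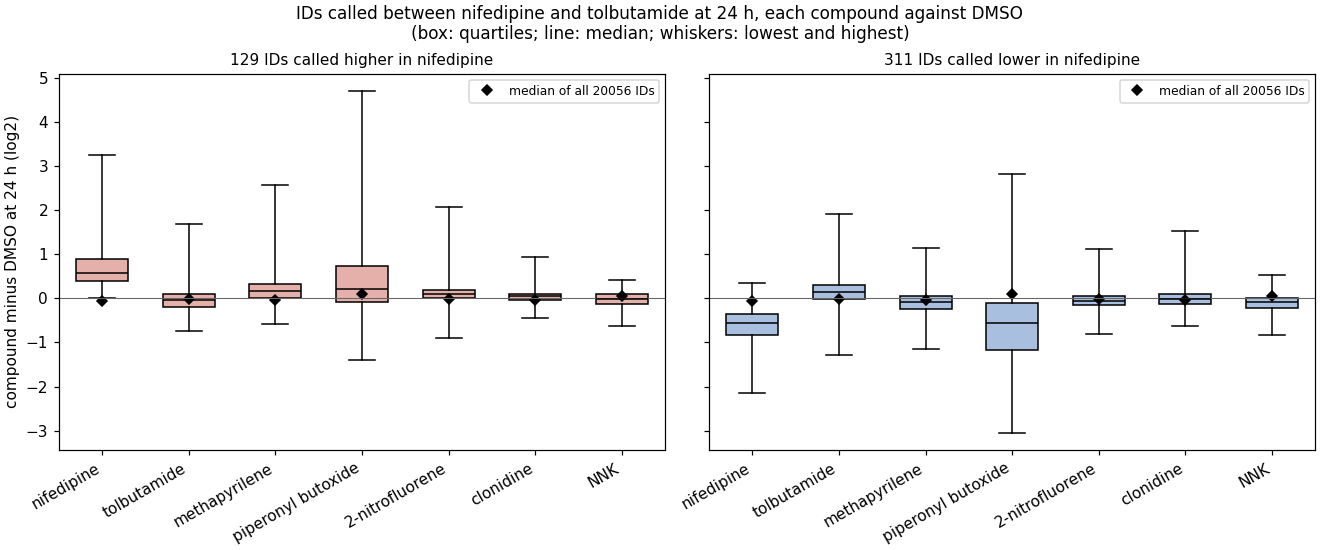
Box plots of the log2 difference of each compound minus DMSO at 24 h for the 129 IDs called higher and the 311 called lower in nifedipine minus tolbutamide (box, quartiles; line, median; whiskers, lowest and highest), with diamonds for the median of all 20056 IDs. The box of the lower IDs lies below 0 for nifedipine (median -0.55) and piperonyl butoxide (median -0.56). It lies mostly above 0 for tolbutamide (median 0.13) and near 0 for the other compounds.

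The named IDs differed in how they ranked over the compounds. ENSG00000138166 was highest in piperonyl butoxide at 24 h, at 11.3 ± 0.73 (SD, n = 3), with nifedipine next at 8.42 ± 0.23 (n = 3), and the other groups, DMSO included, between 6.48 and 7.37. ENSG00000256235 was lowest in piperonyl butoxide, at 7.40 ± 0.51 (n = 3), and next in nifedipine, at 8.30 ± 0.95 (n = 3), and these 2 overlapped within their spread. ENSG00000148677 was also highest in piperonyl butoxide at 24 h, at 8.55 ± 0.36 (n = 3), with nifedipine at 7.43 ± 1.28 (n = 3). ENSG00000164406, in contrast, was lowest in nifedipine at 8.19 ± 0.56 (n = 3), followed by piperonyl butoxide at 9.12 ± 0.63 (n = 3), whose lowest array at 8.40 lay below the highest nifedipine array at 8.83. Tolbutamide was within 1 log2 unit of DMSO in all 4 IDs.

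**Figure D5:**
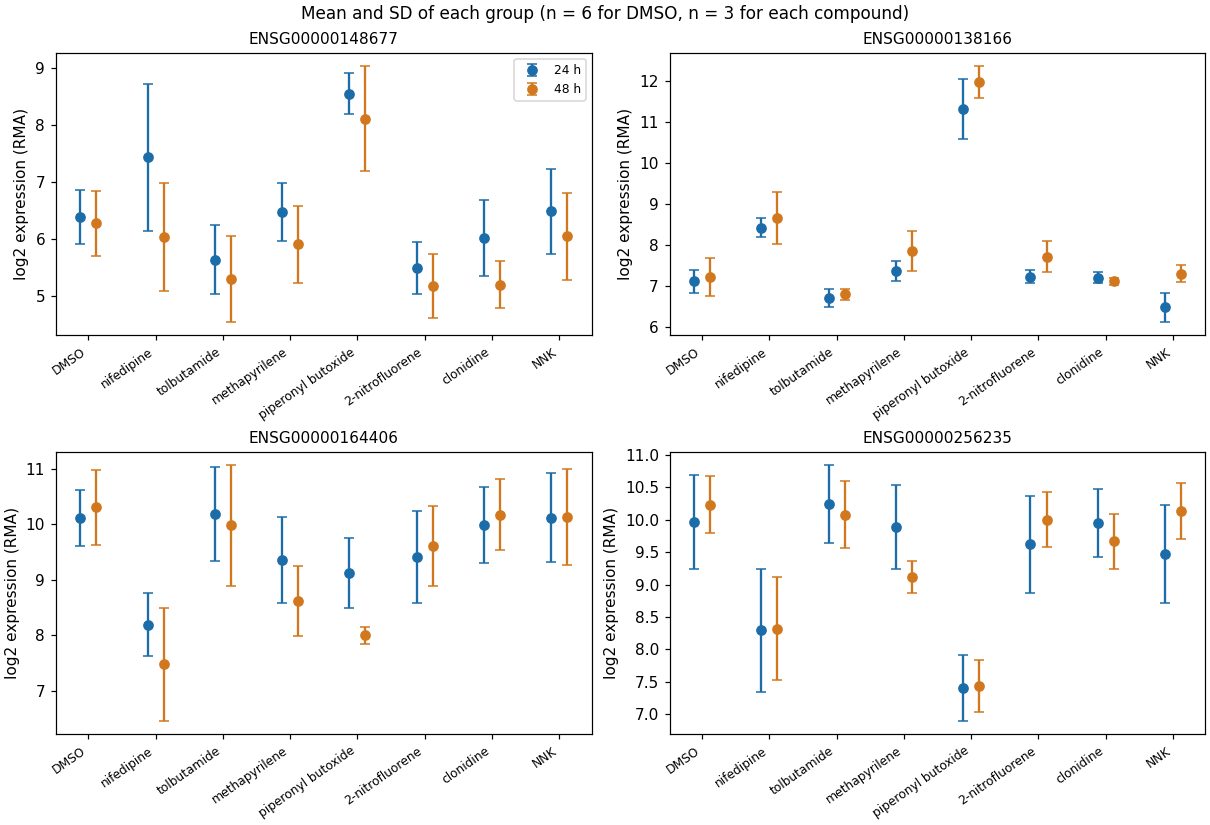
Mean log2 expression with SD of the 4 named IDs in every group at 24 h and 48 h (n = 6 arrays for DMSO and n = 3 for each compound). At 24 h, nifedipine and piperonyl butoxide are the 2 highest groups for ENSG00000148677 and ENSG00000138166 and the 2 lowest for ENSG00000164406 and ENSG00000256235.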

How the data were processed

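Total RNA of 54 HepG2 cultures was labelled as biotinylated cRNA by the Affymetrix 3' IVT procedure, per the labels' protocols. The authors' deposited values are on a log2 scale, and the submitters' processing notes name RMA, which corrects background, normalizes between arrays and summarises probes. The version of RMA, the probe sets and the genome build are each not given in the sources used here. Values were used as deposited, with 0 missing and no filter.

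In R 4.3.3, limma 3.58.1 (lmFit and eBayes, two-sided) fitted all 54 arrays with 16 groups and the replicate number within each time as a fixed block (residual df 34). All groups shared 1 estimate of the spread. IDs were called at an adjusted p under 0.05 (Benjamini-Hochberg over 20056 IDs). The block follows the labels, which tie each array to the DMSO arrays of its number. The deviations of same-numbered nifedipine and tolbutamide arrays correlated at 0.204, -0.0345 and 0.191 at 24 h and at 0.17, -0.146 and 0.297 at 48 h, so not every pair deviated together. Arrays of different numbers correlated between -0.246 and 0.175 at 24 h and between -0.348 and 0.323 at 48 h. The highest correlation at 48 h was thus between different numbers, nifedipine replicate 1 and tolbutamide replicate 2. The method was checked on simulated data, in which the noise was independent and, for each ID, of the same spread in every array. The check therefore does not cover arrays that deviate as a whole, as the low-slope arrays do.

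The comparison, the 39 gene lists and the settings were chosen with earlier results of these data known. As 0 IDs matched a symbol, the lists, markers and promoter motifs were not used, and the 2 called IDs with the largest difference in each direction and the same sign in all 3 pairs were named for the 24 h, the 48 h and the between-time comparison, where no lower ID was called. Alternatives were no block, only the arrays compared, no low-slope arrays, the lowest 0.25 of IDs left out, median centring, the trend and robust options of eBayes, cyclic loess, and each nifedipine or tolbutamide array left out. Chosen after seeing the data was leaving out, in turn, each DMSO array and each array of the other compounds. Array scan dates were not used here.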

Additional observations from a re-analysis of the deposited data

Results flagged for a closer look

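In 16 groups of 6 DMSO arrays (8 named IDs at 2 times) the array farthest from the others was examined, and 1 stood apart by Dixon's criterion, where chance gives about 1 in 20. For ENSG00000138166, DMSO 24 h exposure 1 replicate 2 measured 7.66, and the next highest DMSO array at 24 h measured 7.12.

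The difference between nifedipine and tolbutamide itself differed between 24 h and 48 h for ENSG00000183876, by 1.32 (limma, adjusted p = 8e-04), with nifedipine lower in 3 of 3 pairs at 24 h and higher in 3 of 3 pairs at 48 h. It also differed for ENSG00000166173, by 1.32 (limma, adjusted p = 0.0102), again with nifedipine lower in 3 of 3 pairs at 24 h and higher in 3 of 3 at 48 h.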

How the results depend on the processing

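Over the 5 comparisons, 266 of 305 alternative counts were within 1.5 times the value reported. Most of these counts came from leaving out an array outside the groups compared. Of 915 alternative values of single IDs, all of nifedipine minus tolbutamide, 888 kept direction and call, 27 lost the call and 0 changed direction. Leaving out an array of DMSO or another compound cannot alter these differences, only the estimate of the spread. They are also unaltered by no block, only the arrays compared, the ID filter and the eBayes options. In those settings, which are most of the 915, the direction was fixed in advance and only the call could change. Without the replicate block, limma called 167 IDs in nifedipine minus tolbutamide at 24 h (all among the 440), 152 at 48 h, 1089 in nifedipine minus DMSO and 233 in tolbutamide minus DMSO at 24 h. With the arrays of the groups compared alone, the counts were 1391, 250, 613 and 138 in the same order, and 0 for the difference between times (4005 at an unadjusted p under 0.05). Without the 4 low-slope arrays they were 1451, 1518, 2894 and 1068, and 474 for the difference between times. Median centring gave 282 at 24 h and 2 between times, and cyclic loess gave 1 between times and 446 at 24 h, of which 291 were among the 440. With 1 of the 54 arrays left out in turn, the counts ranged from 135 to 703 at 24 h, 153 to 593 at 48 h, 1 to 41 between times, 744 to 2335 for nifedipine minus DMSO and 198 to 611 for tolbutamide minus DMSO. Each leaving-out of a nifedipine or tolbutamide array leaves 2 in its group.

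The 48 h call of ENSG00000183876 was lost with the compared arrays alone (adjusted p = 0.133), with median centring (0.0669), with cyclic loess (0.174) and without nifedipine 48 h replicate 2 (0.0809), nifedipine 48 h replicate 3 (0.141), tolbutamide 48 h replicate 2 (0.0598) or tolbutamide 48 h replicate 3 (0.226). The between-time call of ENSG00000166173 was lost with the compared arrays alone (0.134), with median centring (0.14) and without nifedipine 24 h replicate 1 (0.106), nifedipine 48 h replicate 3 (0.0598), tolbutamide 24 h replicate 3 (0.0615) or tolbutamide 48 h replicate 3 (0.164). The 48 h call of ENSG00000256235 was lost without the replicate block (0.062, with a lowest of 2.06e-08 over the alternatives). Fewer arrays leave less precision, and beyond that the cause of these changes was not tested.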
